A study of Homo sapiens with 10 samples.

Results

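A set of 181 gene clusters, of the 31848 listed in each library, lay higher in both libraries of the SAM activator than in any other library of the series, apart from 2 that have counts in only 1 SAM library. A cluster is a group of transcripts that the quantification program counts together as 1 gene. The members were chosen on their level in CPM (a cluster's share of the library's summed expected counts, scaled to a fixed total). The lower of the 2 SAM values had to be at least 1.3 times the highest of the 8 other libraries, the mean SAM level at least 2 CPM, and the mean transcript length from 700 to under 9000 nt. In all, 192 clusters met these conditions, and 11 of these, on a list of 12 clusters set apart by the rule, were left out. The ratio of the lower SAM value to the highest other value is called the margin here. Since the SAM libraries chose the members, their height in SAM is a description. Fits and counting intervals that involve SAM are printed for size only and support nothing.

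The cells were HEK293T, an established human embryonic kidney line, transfected with a lipid reagent, and poly(A) RNA was sequenced. The 10 libraries formed 5 groups of 2. Cells of 4 groups received an activator built on catalytically dead Cas9, VP64, VPR, SAM or Suntag, with a guide RNA against the fetal globin gene HBG1, and the fifth group was labelled as a guide only control, whose guide the labels do not name. The labels do not say whether the 2 libraries of a group came from separate cultures, so p-values cover only the variation among these libraries, and that variation may be technical.

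Dead Cas9 binds the DNA that its guide matches without cutting it, and activation domains carried to that place recruit the transcription machinery. VP64 is made of repeats of a viral activation domain, and VPR joins it to the domains of p65 and Rta. Suntag displays a peptide array that recruits copies of VP64 through an antibody fragment. SAM places RNA hairpins in the guide, and a hairpin-binding coat protein fused to the activation domains of p65 and HSF1 docks there. p65 is a subunit of NF-kB, a factor of inflammatory and stress responses, and HSF1 is the main factor of the heat shock response. The files do not pair clusters with gene names, so neither HBG1, the target, nor genes of these responses were located. None of the 646 transcript identifiers of the members was found in the name tables at hand, so no sequence is shown. Members are described by transcript length and counts, and 2 of them by their number in the files.

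Libraries held 3316534 to 7447949 summed expected counts, and the SAM libraries, with 3434486 and 4435296, were not among the deeper ones. The scale of a library bears on the rule. The TMM factors, which correct library sums for a general shift of levels, were 1.03 and 1.05 in SAM and 0.962 to 1.03 in the 8 others. On the CPM of the rule, 12.5% of the 13241 clusters with enough counts for a test had both SAM libraries above all 8 others and 4.96% had both below. With TMM scaling these shares were 8.31% and 8.49%. Of the 181 members, 140 kept the margin and the level with TMM scaling.

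The rule picked far more clusters for SAM than for any other group. With the same margin, level and length, 8 clusters were higher in both VP64 libraries than in the other 8 libraries. The rule found 1 cluster for VPR, 2 for Suntag and 7 for the guide-only control, against the 192 for SAM. The 192 were 1.56% of the 12280 clusters of that length with a mean SAM level of at least 2 CPM. With TMM scaling the numbers were 151 in SAM, 9 in VP64, 3 in VPR, 3 in Suntag and 4 in the control. With the deposited TPM (a relative abundance corrected for transcript length) in place of CPM they were 172, 6, 3, 4 and 16. Only 122 of the 181 members met the rule in TPM. These counts describe the libraries, and their difference was not tested. The choice rests on both SAM libraries: with SAM replicate 1 left out 423 clusters met the rule outside the list, and with SAM replicate 2 left out 579 did.

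**Figure D1:**
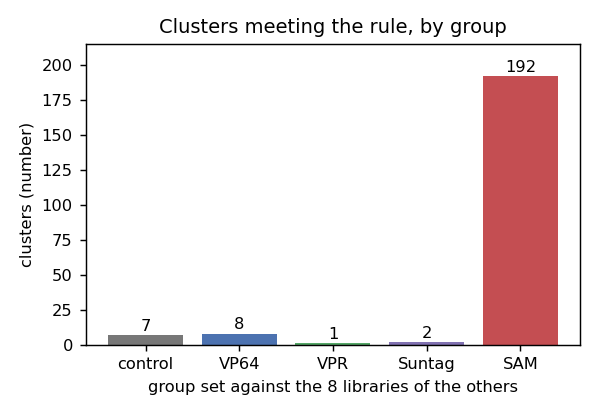
Number of clusters (vertical axis) whose lower CPM in the named group was at least 1.3 times the highest CPM of the 8 other libraries, at a mean level of at least 2 CPM and a length from 700 to under 9000 nt, for each of the 5 groups. SAM had 192 such clusters, and the other groups had 1 to 8.

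Most margins were modest. The median margin was 1.48 over the 179 members for which it can be computed, and 96 members lay between 1.3 and 1.5, 59 between 1.5 and 2, and 24 at 2 or more. The highest margin was 5.12. The mean SAM level stood at a median of 2.25 times the mean of the 8 others. The members closest to the limit had margins of 1.3, with 23.9 CPM in the lower SAM library against 18.4 in the highest other one in one case and 68.3 against 52.5 in another. Clusters just outside had margins just below 1.3, such as 1 with 3.38 against 2.62 CPM and 1 with 26.2 against 20.2 CPM. A further 90 clusters had margins from 1.2 to under 1.3, so the set ends within a continuous range.

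Each library's values over the members showed the same contrast in sum. The 181 members together held 2354 and 2291 CPM in the SAM libraries. In VP64 the sums were 1216 and 1224 CPM, for VPR 1274 and 1264, for Suntag 1253 and 1342, and for the control 1180 and 1305. The 8 other libraries thus spanned 1180 to 1342 CPM, and the range of the control covered both VP64 and both VPR libraries. Neither SAM library was higher throughout: 97 members were higher in replicate 1 than in replicate 2 and the median ratio of replicate 1 to 2 was 1.004. In 17 members the SAM libraries differed by more than 1.5 times, with ratios of replicate 1 to 2 from 0.565 to 3.23 over all members.

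**Figure D2:**
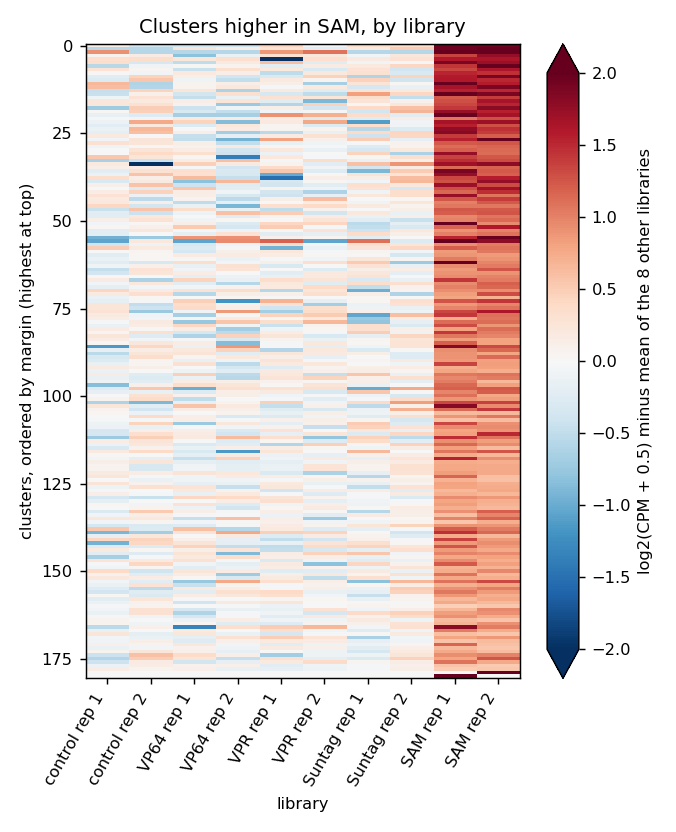
Each row is 1 of the 181 members, ordered by margin, and each column 1 library. Colour gives log2(CPM + 0.5) minus its mean over the 8 libraries that are not SAM, with values beyond 2 shown at the end of the scale. Both SAM columns lie above the other 8 in all rows except the 2 members that have counts in 1 SAM library each.

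The most abundant member was cluster 29286, with 3 transcripts and a mean length of 1533 nt. The SAM libraries held 460 and 417 TPM. VP64 stood at 255 and 261 TPM, VPR at 250 and 247, Suntag at 259 and 258, and the control at 241 and 275. The SAM libraries lay above all others, and the 2 control libraries spanned the values of VP64, VPR and Suntag. In expected counts it held 1078 and 1301 in SAM and 621 to 1342 in the other libraries, with SAM among the shallower libraries. From summed counts and library totals SAM stood at 1.70 times the control (95% exact Poisson interval 1.60 to 1.81, counting error only), 1.65 times VP64, 1.66 times VPR and 1.64 times Suntag. Relative to the control, the log2 difference of VP64 was 0.12 ± 0.09, that of VPR 0.12 ± 0.08 and that of Suntag 0.10 ± 0.08 (SE from edgeR's quasi-likelihood fit, adjusted p = 0.579, 0.422 and 0.631). Its counts were not whole, as the program leaves them where it divides reads between clusters.

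The next most abundant members per length had the same shape. A cluster of 839 nt with 2 transcripts stood at 192 and 178 TPM in SAM. In the other libraries it ranged from 87.3 TPM in control replicate 1 to 114 TPM in VPR replicate 1, and the control spanned most of that range. A cluster of 2882 nt with 4 transcripts stood at 160 and 156 TPM in SAM and between 83.6 and 117 TPM elsewhere, with its highest other value in Suntag replicate 2. For this member the VP64 libraries, at 83.6 and 89.1 TPM, were the lowest pair and did not overlap the other groups. A cluster of 2136 nt with 9 transcripts and whole counts in every library held 50.6 and 51.4 TPM in SAM and 25.7 to 36.3 TPM in the others, the highest in control replicate 2. The members ranked 5 to 10 had mean SAM levels of 27.6 to 34.7 TPM, with means over the 8 others of 15.0 to 21.8 TPM. Of these 6, those of 1751 and 1052 nt differed more between the SAM libraries, at 33.8 and 26.0 TPM and at 33.0 and 24.8 TPM.

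**Figure D3:**
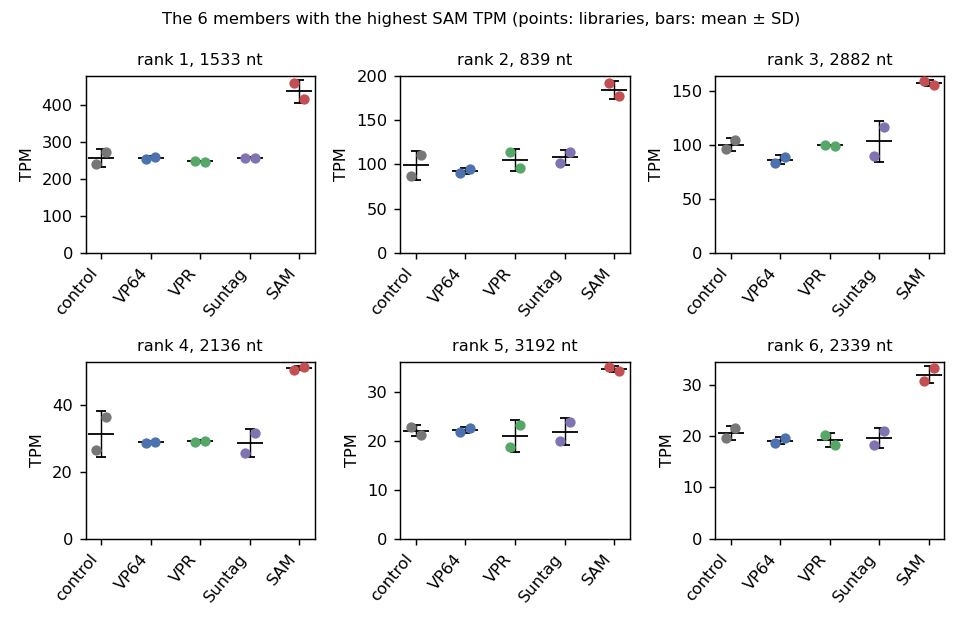
TPM (vertical axis, from 0) in each library for the 6 members with the highest mean SAM TPM, by group. Points are libraries and bars the mean ± SD of 2 libraries. In each panel both SAM points lie above the 8 others, and in the first panel SAM is at 460 and 417 TPM against 241 to 275 TPM elsewhere.

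Large margins went with low levels. All 24 members with a margin of 2 or more had a mean SAM level under 10 CPM, and 16 of them under 5 CPM. The 56 members at 10 CPM or more had a median margin of 1.39 and at most 1.96, and their mean SAM level was 1.43 to 2.76 times the mean of the other libraries. Of all members, 82 had a mean SAM level under 5 CPM, 43 from 5 to under 10, 50 from 10 to under 50, and 6 at 50 or more. The median was 5.73 CPM, against 29.8 CPM for the other 12099 clusters of the same length and minimum level. Members made up 5.6% of such clusters from 2 to under 5 CPM, 3.19% from 5 to under 10, 0.943% from 10 to under 50, and 0.144% above. In 66 members the 2 SAM libraries together held fewer than 30 counts, and counting error alone is wide at that depth.

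**Figure D4:**
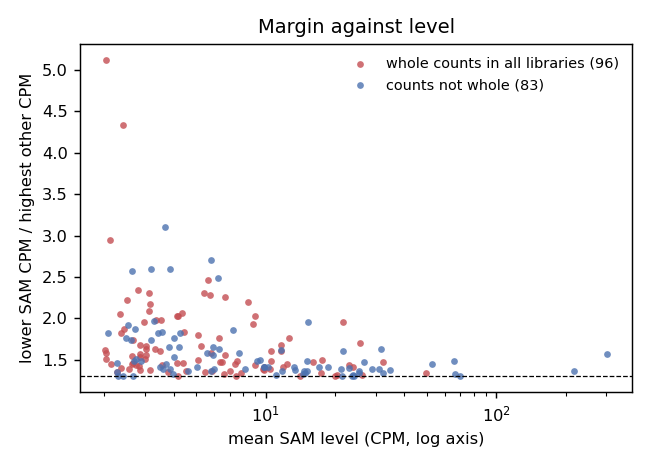
Margin (vertical axis, lower SAM CPM divided by the highest CPM of the 8 others) against mean SAM CPM (horizontal log axis) for the 179 members with a margin. The dashed line is the limit of 1.3, and colour marks the 96 members with whole counts in all libraries and the 83 without. Margins of 2 or more occur only below 10 CPM.

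Cluster 9892, of 5009 nt and 2 transcripts, had the highest margin. The SAM libraries held 7 and 9 of its counts, all whole. VP64 had 0 and 0, VPR 2 and 1, Suntag 2 and 2, and the control 1 and 0. Both SAM libraries lay above all others, at 0.86 and 0.84 TPM against 0.15 TPM or less. From summed counts SAM stood at 8.47 times VPR (95% exact Poisson interval 2.42 to 45.4), 5.75 times Suntag (1.86 to 23.6) and 21.8 times the control (3.39 to 915), the last against a single count. VP64 held no count. Set to a floor of 3 counts over both its libraries, the ratio would be 5.88, and the exact Poisson interval, which also takes in the error of the SAM counts, has a lower limit of 4.25. Intervals and floors cover counting error only and take no account of the choice of this member for its margin.

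Other members with large margins also held few counts. The one ranked 2 by margin, of 1704 nt with 2 transcripts, held 8 and 11 counts in SAM, 0 and 0 in the control and 1 to 3 in each of the other libraries. The one ranked 9, of 1691 nt with 5 transcripts, had more reads, with 22 and 27 counts in SAM, and stood at 8.19 and 7.21 TPM there against 1.32 to 3.49 TPM elsewhere. Rank 10, a single transcript of 3539 nt with whole counts, held 17 and 28 counts in SAM, or 2.99 and 3.72 TPM, against 0.40 to 1.2 TPM.

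Among the 56 members at 10 CPM or more, the 5 with the largest margins were listed after the values were seen. A cluster of 2025 nt with 6 transcripts and whole counts held 73 and 97 counts in SAM, or 23.1 TPM in both libraries. Its other libraries ranged from 8.15 TPM in Suntag replicate 1 to 11.2 TPM in VP64 replicate 2, and its margin was 1.96. A cluster of 5613 nt had the same margin, with 5.68 and 5.62 TPM in SAM and 1.51 to 2.87 TPM elsewhere. The remaining 3, of 2236, 5470 and 4381 nt, had whole counts in every library and margins of 1.76, 1.71 and 1.68. The first of these, a single transcript, stood at 11.4 and 12.9 TPM in SAM against 3.53 to 6.34 TPM in the others, where VP64 was the lowest pair at 3.53 and 4.49 TPM.

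For some members the difference between SAM and the rest was smaller once reads shared with a second cluster were added. Counts were whole, within 0.01, in all 10 libraries for 96 of the 181 members. Among the other 85, a second cluster was sought whose counts, added to the member's, gave whole numbers within 0.02 in every library. Members with fewer than 3 libraries more than 0.05 from a whole count were not searched. Exactly 1 such cluster was found for 4 members, each time adjacent in number, and after summing 1 of the 4 kept a margin of 1.3. The member of 2268 nt was the clearest case. It stood at 6.99 and 7.44 CPM in SAM and at 0 to 3.77 CPM elsewhere. Summed with its partner, SAM stood at 7.21 ± 0.32 CPM and the control at 6.29 ± 0.51 CPM (SD over 2 libraries), and the margin was 1.05. For the member of 1121 nt the partner held 75.1% of the summed counts and the margin of the sum was 0.983. A pair of members of 7896 nt had equal counts in all libraries, so reads could not be assigned to either and they stand for 1 measurement. For 79 members, which include those not searched, no single partner was found. Their levels are uncertain where other clusters share the reads.

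Another 2 members met the rule in form only. One of 1728 nt held 14.4 counts in SAM replicate 1 and 0 in all other libraries, and one of 3057 nt held 17.8 counts in SAM replicate 2 and 0 in the rest. Their lower SAM value and highest other value are both 0, and neither count is whole.

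Whole counts were more frequent among members than among other clusters of the same length and minimum level, 53% against 20.9%. Whole counts were also more frequent at low levels, where the members lie. By level, the shares were 58.5% of members against 45.6% of the others from 2 to under 5 CPM, 62.8% against 42.5% from 5 to under 10 CPM, and 42.0% against 23.1% from 10 to under 50 CPM. None of the 6 members at 50 CPM or more had whole counts, where 3.29% of the 4159 others did. These shares are a description with no test.

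Between the groups other than SAM, none of the members was called different. This comparison is the one the rule leaves free, apart from its cap on the highest of the 8 libraries. Counts were tested with edgeR's quasi-likelihood test over all 13241 clusters with enough reads, with Benjamini-Hochberg adjustment and a threshold of 0.05. Of the 181 members, 171 passed the filter on low counts, and 112 would have passed it on the 8 other libraries alone, so 59 passed only with the SAM libraries included. Medians and quartiles of log2 differences in the text are therefore given over the 112. So are the orders of a group's libraries against the 6 remaining ones that are not SAM. The highest other library and group mean are counted over 179 members, and mean lengths over 136 tested members. These counts, and the plot of log2 differences over all 171, include members that passed only with SAM. The 10 that did not pass held 14.4 to 21.0 summed counts in SAM.

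Against the guide-only control, 0 of the 171 members were called in VP64, where 0.816% of all clusters were called. In VPR 0 were called, against 6.60% of all clusters, and in Suntag 0, against 1.33%. At an unadjusted p under 0.05 the numbers were 6, 13 and 5, or 3.51%, 7.60% and 2.92% of the 171, where 14.4%, 22% and 15.6% of all clusters passed. Over the 112 they were 4, 11 and 4, or 3.57%, 9.82% and 3.57%. Of the 13042 tested clusters that pass the count filter without SAM, 14.5%, 22.3% and 15.8% had such a p. The members thus passed less often than clusters at large, and they also hold fewer counts and have their highest value capped by the rule; the part of either in this was not tested.

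Single libraries moved the counts. The VPR calls named next went in opposite directions: lower than the control without VPR replicate 2, and higher without control replicate 1. One member was called for VPR without VPR replicate 2 or without control replicate 1, and 1 for Suntag without Suntag replicate 1 or without control replicate 1. The calls over all clusters moved more. They went from 874 to 143 for VPR without VPR replicate 1, to 178 without control replicate 2, to 244 without control replicate 1, and to 1317 and 1332 without Suntag replicate 1 and 2. For VP64 they went from 108 to 0 without either VP64 library, to 69 and 66 without SAM replicate 1 and 2, to 32 and 3 without control replicate 1 and 2, and to 362 and 359 without Suntag replicate 1 and 2. For Suntag they went from 176 to 376 without Suntag replicate 1, to 68 without either VP64 library, to 108 without either SAM library, and to 23 and 7 without control replicate 1 and 2. With length trends removed they were 19 for VP64, 89 for VPR and 16 for Suntag. DESeq2 called 0 members in each of these comparisons as well, but it gave no adjusted p for 166, 164 and 166 of the 171.

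Over the 112 members, the median log2 difference from the control was 0.04 for VP64, 0.07 for VPR and 0.06 for Suntag, beside 0.00, -0.02 and 0.00 over the 13042 tested clusters that pass without SAM. The quartiles of the members were -0.13 and 0.19 for VP64, -0.10 and 0.28 for VPR, and -0.05 and 0.25 for Suntag. The 3 comparisons share the control libraries. In the 56 members at 10 CPM or more the log2 differences ran from -0.52 to 0.95 in VP64, from -0.60 to 0.92 in VPR and from -0.55 to 0.75 in Suntag.

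Between the activators other than SAM, 0 of the 171 members were called for VPR against VP64, Suntag against VP64 and VPR against Suntag, where 0.00755%, 0.234% and 0% of all clusters were called. At an unadjusted p under 0.05 the numbers were 10, 5 and 7, or 5.85%, 2.92% and 4.09% of the 171. Of all clusters 8.64%, 14.8% and 13.3% had such a p. Over the 112 the numbers were 7, 5 and 6, or 6.25%, 4.46% and 5.36%. Of the 13042 tested clusters that pass the count filter without SAM, 8.69%, 14.9% and 13.4% had such a p. DESeq2 called 0 in each, with no adjusted p for 169 of the 171. Without Suntag replicate 1, 1 member was called for Suntag against VP64, and the calls over all clusters went from 31 to 528 there, with 0 to 2 without VP64 replicate 1, VP64 replicate 2 or Suntag replicate 2, and from 0 to 476 for VPR against Suntag. Without the count filter 1 member was called for VPR against Suntag, where 402 of all clusters were.

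**Figure D5:**
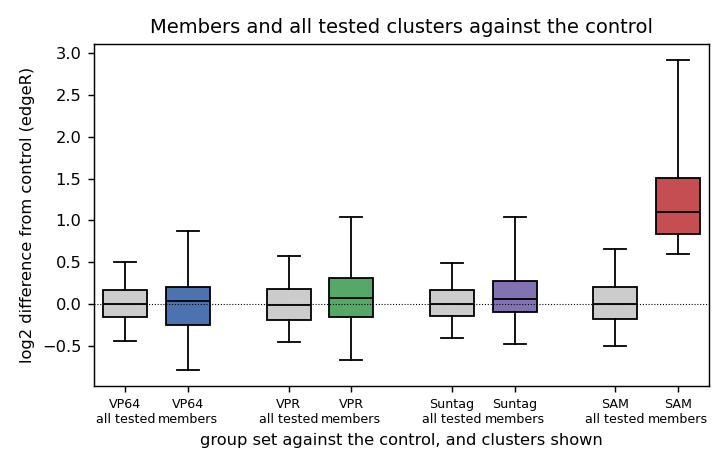
Log2 difference from the control (vertical axis, edgeR) for the 171 tested members (coloured) and all 13241 tested clusters (grey) in each activator. Boxes span the quartiles with the median, and whiskers the 5th to 95th percentile. Members centre near 0 in VP64, VPR and Suntag, and their height in SAM was set by the rule.

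The members with the smallest p in each comparison with the control, picked after the values were seen, were ones in which the control was low. A single transcript of 2095 nt stood at 2.06 and 2.11 CPM in VP64, 0.990 and 0.940 in VPR, 0.697 and 0.896 in Suntag and 0.215 and 0.329 in the control, beside 3.49 and 4.90 in SAM. Here VP64 ranked below SAM and above all other groups, with no overlap, and its log2 difference from the control was 2.85 ± 0.69 (SE, edgeR adjusted p = 0.0678) from 3 summed control counts. For VPR it was a cluster of 1790 nt with 4 transcripts, at 1.39 and 1.34 CPM in VPR against 0.215 and 0.329 CPM in the control, with 3.203 and 2.48 CPM in SAM. VP64 lay in the same range as VPR there, at 1.12 and 1.81 CPM, and the log2 difference of VPR from the control was 2.26 ± 0.74 (SE, edgeR adjusted p = 0.08). The control libraries held 1 and 2 counts of this cluster. It passed the count filter only with the SAM libraries included, so its fit is printed for size only. A cluster of 3920 nt with 2 transcripts stood at 3.49 and 5.02 CPM in Suntag, 3.76 and 2.42 in VPR, 2.24 and 2.71 in VP64 and 1.5 and 1.15 in the control, beside 7.28 and 7.44 in SAM. Its log2 difference from the control was 1.71 ± 0.42 in Suntag and 1.26 ± 0.44 in VPR (SE, edgeR adjusted p = 0.0557 and 0.0974). A cluster of 2345 nt with 6 transcripts held 7.29 and 7.24 CPM in VP64 and 4.08 and 3.79 in the control, with 10.8 and 10.2 in SAM, a log2 difference of 0.95 ± 0.27 for VP64 (SE, edgeR adjusted p = 0.114). None of these passed the threshold.

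No other group was regularly in second place. The highest library outside SAM belonged to Suntag in 51 of 179 members, to the control in 44, to VP64 in 43 and to VPR in 41. By group means Suntag was highest of the 4 in 53 members, VPR in 46, the control in 41 and VP64 in 39. Both control libraries lay below the 6 libraries of VP64, VPR and Suntag in 6 of the 112 members, or 5.36%, where 6.37% of the clusters that pass without SAM had that order. Both lay above them in 2, or 1.79%, against 12.4%. Both Suntag libraries lay above the 6 remaining ones in 8 members, or 7.14%, against 5.82%, both VP64 libraries in 5, or 4.46%, against 3.63%, and both VPR libraries in 4, or 3.57%, against 4.14%. Below the 6 remaining ones lay VP64 in 5 members, against 5.48% of those clusters, VPR in 5, against 7.7%, and Suntag in 2, against 4.15%. The rule caps the highest of the 8 libraries, which can limit an order above all others. Its part in these shares was not tested.

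Tests that involve SAM repeat the choice of the members, and their counts are printed without being read as evidence. Against the control 68 of the 171 members were called higher, where 2.27% of all clusters were. Against VP64 49 were called higher (1.52% of all clusters), against VPR 61 (2.11%) and against Suntag 29 (0.717%). Called against all 4 groups were 15 members, each with a mean SAM level of at least 11.6 CPM, where 0.234% of all clusters were called higher against all 4. With either library of a compared group left out, fewer members were called higher in each of these 4 comparisons. Fewer clusters at large were called higher as well, except for SAM against Suntag without Suntag replicate 1, where more were. Against Suntag, fewer members and fewer clusters at large were also called higher without any 1 library of VP64, VPR or the control. Whether the falls differed between members and other clusters was not tested.

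Members and other clusters were close in length and number of transcripts. The members' median length was 3023 nt, with quartiles of 2111 and 4340 nt, beside 2889 nt, 1937 and 4247 nt for the other 12099 clusters of that length window and level. From 700 to under 1500 nt lay 8.84% of members and 13.4% of the others, and from 3000 to under 9000 nt 51.4% and 47.5%. The median number of transcripts was 3 in both sets, and 17.1% of members and 18.6% of the others had 1 transcript. After removal of each library's trend with length, an alternative chosen after seeing the data, 135 of the 181 members met the rule.

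The mix of transcripts within a cluster is a readout that the rule did not use. The deposited mean length is weighted by the abundance of a cluster's transcripts, so it moves when their shares do. In 2 of 136 members with several transcripts and counts in every library, both SAM libraries lay above the 8 others in mean length by more than 1 nt, and in 0 below. Over all 10504 such clusters 2.17% lay above and 1.86% below, or 4.03% in either direction, beside 1.47% of the members. Members as a set lie at lower levels than other clusters, and the part of this in their lower share was not tested. Without SAM replicate 1, 13 members were longer and 1 shorter, or 10.3%, where 17.6% of all clusters lay outside. Without SAM replicate 2, 8 were longer and 7 shorter, or 11.0%, against 20.3%, and without VP64 replicate 2 4 were longer, or 2.94%, against 5.02%. The larger shift was in a cluster of 1180 nt with 4 transcripts, where the mean length was 1797 and 1592 nt in SAM and 887 to 1215 nt elsewhere, from 25 and 35.8 counts in SAM that are not whole. Per length this member overlapped, at 8.96 and 11.0 TPM in SAM and up to 9.30 TPM in VP64 replicate 2. The other was the abundant cluster of 2882 nt, with 2945 and 2924 nt in SAM against 2810 to 2914 nt.

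In the numbering of the files 5 pairs of members had consecutive numbers, and no expected number was computed. In 2 of these pairs both members had whole counts, and in the rest at least 1 member did not. A pair of 3216 and 1834 nt, with whole counts, stood at means of 9.01 and 6.59 CPM in SAM. Over the 8 other libraries its means were 3.09 and 3.47 CPM. Of 168 tested clusters next to a member by number and not members themselves, 11.9% had both SAM libraries above all 8 others. Among the remaining 12890 tested clusters this share was 11.2%.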

How the data were processed

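Per the submitters' processing notes, the authors' tables came from RSEM 1.2.1 and hg19. No source used here gives the transcript annotation. Per the file headers the tables hold expected counts, which are estimates that need not be whole. They also hold TPM, which the authors deposited as made by RSEM and which corrects for effective length, and deposited mean lengths over a cluster's transcripts. Libraries were tagmented and do not mark strand, per the labels' protocols, so overlapping and antisense genes cannot be told apart.

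The members and the lists of members described were chosen with earlier results of these data known. Expected counts were rounded and fitted with edgeR 4.0.16 in R 4.3.3 (filterByExpr, TMM, 1 coefficient per group, all 10 libraries). The rule for named genes gives numbers to 2 members, that with the largest margin and, among the rest, that with the highest mean SAM TPM. The lists by level from 10 CPM and by smallest p were added after values were seen. On simulated data for VPR against the control, with 13051 clusters, the test found 44.8% of the 67 clusters given a 1.5-fold difference, and 8.78% of its calls were false. At 2-fold it found 65.7% of 67, and at 4-fold 92.4% of 66. The changed clusters were drawn at random from all tested clusters. Members lie at lower levels, so these rates do not hold for them, and theirs were not computed. Alternatives were DESeq2 1.42.0, RLE factors, no filter, fits of the compared groups alone, the replicate block, other limits and scales of the rule, and leaving out each library. Removing length trends and keeping whole counts alone were added after seeing the data.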

Additional observations from a re-analysis of the deposited data

How the results depend on the processing

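The comparisons of VP64, VPR and Suntag with the control gave 0 calls each over 171 members. VP64 gave 1 without the count filter (181 members), where 533 of 19963 clusters were called. From the compared groups alone it gave 1 (99 members), where 617 of 12616 clusters were called. Suntag gave 2 without the filter, where 590 of 19963 clusters were called. Leaving out 1 library, with 174 to 180 members tested, gave 0 for VP64, 0 to 1 for VPR and 0 to 1 for Suntag. For the comparisons of SAM with the control, VP64, VPR and Suntag, which repeat the choice of the members, DESeq2 called 6, 4, 4 and 2, with no adjusted p for 164, 164, 164 and 169 members. Of all 13241 clusters it called 95, 74, 73 and 48 higher. Leaving out 1 library gave 6 to 77, 0 to 60, 0 to 68 and 0 to 23 calls. With 1 library left out, the number of clusters at large called higher moved as well in each of these comparisons. Whether members moved more than other clusters was not tested. Without the filter SAM against VP64 gave 82 and SAM against Suntag 66, where 439 and 302 of 19963 clusters were called higher. From the compared groups alone they gave 86 and 11, where 653 of 12458 and 29 of 12882 clusters were called higher. Same-numbered libraries did not deviate together (correlations from -0.07 to 0.06 over 10 pairs of groups), so the numbers were not taken to pair them. With a replicate block SAM against Suntag gave 18 calls in place of 29, and the block changed no other count of called members by more than 1.5 times. Over all clusters the block gave 63 higher calls for SAM against Suntag in place of 95. The rule gave 85 clusters at a margin of 1.5, 56 at a mean SAM level of 10 CPM and 96 with whole counts alone, an alternative chosen after seeing the data, and 192 to 579 with 1 library left out. Members whose mean length lay outside numbered 1 at a limit of 10 nt and 2 to 15 with 1 library left out. With 1 library in a group, that library is assumed to vary like the other groups. Depth limits the set, since 66 members held fewer than 30 counts in SAM, and a p that missed the threshold does not show equal levels.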
